A study of Homo sapiens with 4 samples.

Results

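The 44 genes described here encode proteins that carry a cell through mitosis: kinases, cyclins, checkpoint proteins, kinesin motors, kinetochore subunits and spindle proteins. They were chosen by symbol from a list of mitotic genes, with earlier results of these data known. All 44 were found among the 56832 genes of the deposited table. The RNA came from A375, an established human melanoma cell line labelled wild type and grown in DMEM with 10% serum. The treated group received 1 mM octanoate, a medium-chain saturated fatty acid, for 48 h, and the control group received the vehicle isopropanol for 48 h. There was 1 dose, 1 time and 1 cell line. Each group had 2 libraries, numbered 1 and 2, with between 67785956 and 78005035 reads per library recovered from the normalised values. The labels do not say whether these came from separate cultures, so the spread between these libraries may be technical. The p-values rest on that spread, with the variance of each gene drawn strongly toward that of genes of like level.

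In a dividing cell, CDK1 bound to B-type cyclins starts mitosis, and motor proteins and microtubules then build the spindle. The spindle checkpoint holds back the anaphase-promoting complex (APC/C), a ubiquitin ligase, until every kinetochore is attached. CDC20 then activates the APC/C, which marks cyclin B and securin for destruction, so that the sister chromatids part. Transcripts of these genes are made mostly in G2 and mitosis, under the MuvB complex with B-MYB and FOXM1. Many of their promoters hold a CCAAT box, which NF-Y binds, and a cell cycle homology region (CHR), which MuvB binds.

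The promoters were read from RefSeq (GRCh38.p14), which held 49 windows for 37 of the 44 genes. AURKA, BUB3, TTK, UBE2C, BIRC5, TPX2 and FOXM1 were not among them. In the 250 bases before the start, 22 of the 49 windows (44.9%) held TTTGAA or TTCGAA, the only CHR letters searched, on either strand. Other forms of the CHR were not searched, so a window without a match is not shown to lack a CHR. Of all 35116 windows in the table, 14.3% held these letters. CCAAT stood in 37 of the 49 windows (75.5%), against 32.0% of all windows. Both together were found in 20 windows (40.8%), against 5.05% of all windows. The E2F letters TTTCCCGC or TTTGGCGC were in 1 of the 49 (2.04%), that of CENPA, against 1.93% of all windows. A CHR match can share letters with a CCAAT match on the other strand, and each was then counted. A match describes these letters only and is no measured binding site.

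The promoters of KIF20A, CCNB1, CDCA8 and NDC80 are shown because each had the smallest p-value of its role among genes with a RefSeq window, for the 4 roles where that p-value was smallest. Capitals mark matches to CCAAT or the CHR letters on either strand, and each sequence runs 5′ to 3′ and ends at the base before the start.
KIF20A (chr5:138178862-138179111, plus strand): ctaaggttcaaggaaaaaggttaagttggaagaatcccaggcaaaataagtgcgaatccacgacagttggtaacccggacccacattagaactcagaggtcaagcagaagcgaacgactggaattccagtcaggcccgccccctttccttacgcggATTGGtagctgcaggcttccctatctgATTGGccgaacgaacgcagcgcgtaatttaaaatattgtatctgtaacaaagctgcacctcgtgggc
CCNB1 (chr5:69166900-69167149, plus strand): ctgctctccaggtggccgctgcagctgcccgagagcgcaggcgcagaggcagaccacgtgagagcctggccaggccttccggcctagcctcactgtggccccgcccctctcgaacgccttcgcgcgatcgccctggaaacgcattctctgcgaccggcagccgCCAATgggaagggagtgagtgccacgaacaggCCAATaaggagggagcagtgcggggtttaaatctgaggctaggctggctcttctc
CDCA8 (chr1:37692266-37692515, plus strand): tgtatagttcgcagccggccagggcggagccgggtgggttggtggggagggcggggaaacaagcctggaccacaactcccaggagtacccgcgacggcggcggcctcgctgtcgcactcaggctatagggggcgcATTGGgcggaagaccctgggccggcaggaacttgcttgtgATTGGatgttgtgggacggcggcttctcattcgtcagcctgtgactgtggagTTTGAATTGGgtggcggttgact
NDC80 (chr18:2571307-2571556, plus strand): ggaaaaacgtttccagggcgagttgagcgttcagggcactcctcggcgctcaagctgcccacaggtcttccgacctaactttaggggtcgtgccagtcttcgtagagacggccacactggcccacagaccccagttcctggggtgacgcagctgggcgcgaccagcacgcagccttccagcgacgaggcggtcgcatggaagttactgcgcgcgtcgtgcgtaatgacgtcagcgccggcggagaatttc
In KIF20A, ATTGG, the CCAAT box read on the other strand, began at positions -94 and -67 from the start. In CCNB1, CCAAT began at -87 and -55. CDCA8 held ATTGG at -115, -75 and -18 and TTTGAA at -23, the last pair sharing 1 base. NDC80 held none of these letters in its 250 bases.

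Most of these genes had lower normalised counts in the octanoate libraries, by small amounts. All 44 genes passed the filter for testing, a mean normalised count of 10 or more, which left 20250 genes. A normalised count is the read count of a gene divided by 1 factor per library. Of the 44 genes, 30 were lower and 1 was higher under octanoate at a limma adjusted p under 0.05. Of all tested genes, 29.9% were called, 13.7% lower and 16.2% higher. Of those with means of 1000 or more, a level that 43 of the 44 reached, 20.0% were lower and 18.1% higher. Adjusted p-values below are limma's unless another tool is named, and differences are octanoate minus vehicle on the scale log2(normalised count + 1). These calls rest on a variance prior that follows expression level: with 1 prior for all genes limma called 0 of the 44 at an adjusted p under 0.05, with the smallest adjusted p at 0.0505 and with 20 of the 44 lower and 0 higher at an unadjusted p under 0.05. At an adjusted p under 0.05 that fit called 2.62% of all tested genes lower and 5.41% higher. The share of all tested genes at an unadjusted p under 0.05 was not counted, so the 20 have no background here. On recovered reads, edgeR called 31 of the 44 lower and 1 higher, beside 14.9% and 17.1% of all tested genes. DESeq2 called 29 lower and 1 higher, beside 15.1% and 15.2%. With any 1 library left out, limma called between 20 and 24 of the 44 lower and 0 higher at an adjusted p under 0.05: 21 without vehicle 1, 21 without vehicle 2, 24 without octanoate 1 and 20 without octanoate 2. Of all tested genes these fits called between 7.53% (without vehicle 1) and 11.2% (without octanoate 1) lower. Each of these fits left 1 library in a group, so the replicate spread came from the other group alone. In the fits without octanoate 1 or octanoate 2, a gene's own spread did not enter. The difference of PTTG1 stayed positive in all 4 fits. The authors' deposited table lists 28 of the 44 as lower and 1 as higher at an adjusted p under 0.05, beside 6.01% lower and 6.89% higher of all 33533 genes in the authors' deposited table.

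**Figure D1:**
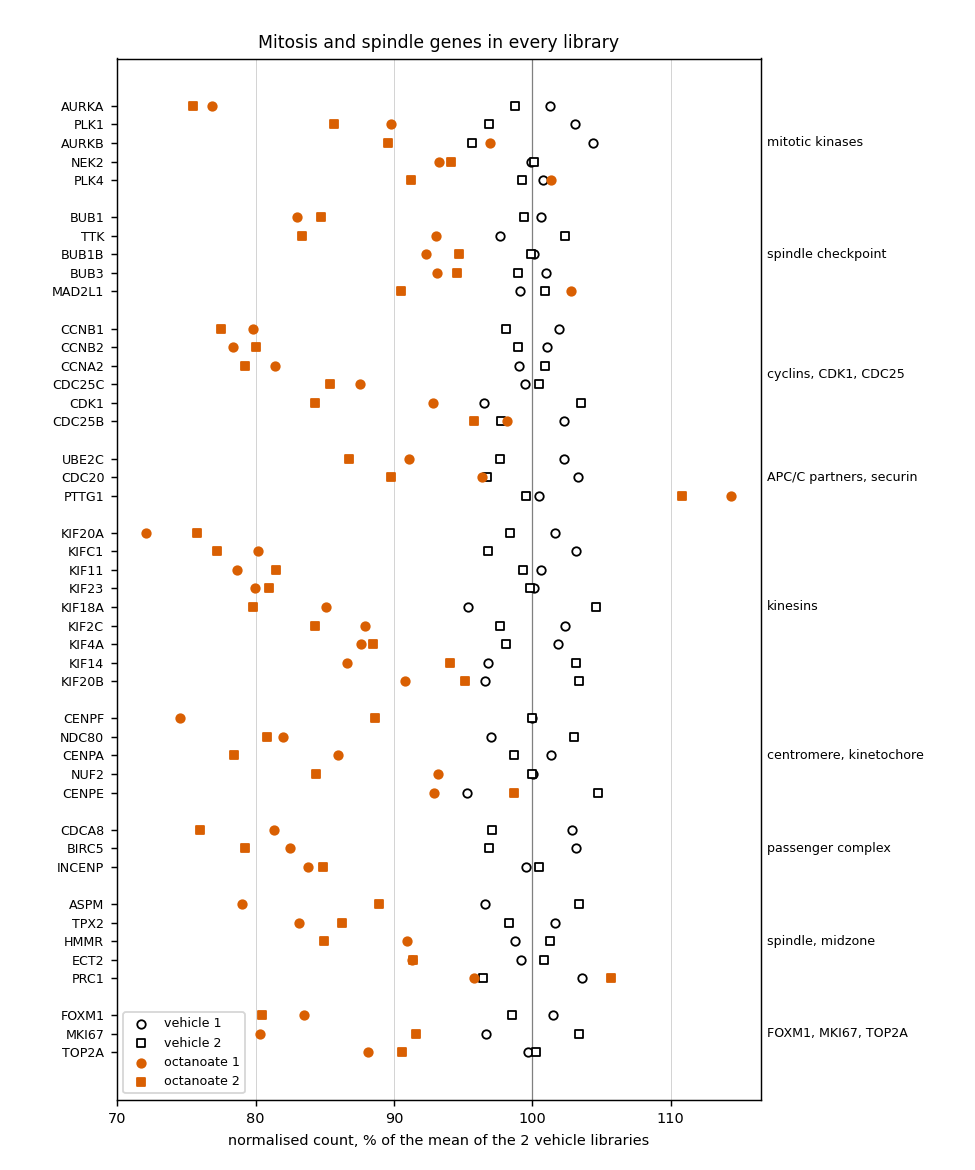
Normalised count of each of the 44 genes in every library, as a percentage of the mean of the 2 vehicle libraries (x axis), with genes grouped by role; open symbols are vehicle, filled symbols octanoate, circles replicate 1 and squares replicate 2. Both octanoate libraries lie left of both vehicle libraries for 37 genes, and right of both for PTTG1 only.

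The median log2 difference of the 44 genes was -0.20, against 0.0050 for all tested genes and -0.02 for those with means of 1000 or more. A negative difference was seen for 42 of the 44, the exceptions being PTTG1 and PRC1. None of the 44 differed by a factor of 2 or more, and 10 fell by more than 0.3 on the log2 scale. The octanoate mean ranged from 73.9% of the vehicle mean for KIF20A to 113% for PTTG1, with a median of 87.1%. Both octanoate libraries were below both vehicle libraries for 37 genes and above them for 1, while the groups overlapped for 6. Of all tested genes, 30.5% lay below in this way and 32.6% above. The highest library was vehicle 1 for 23 genes and vehicle 2 for 17, and the lowest was octanoate 1 for 20 and octanoate 2 for 23. Summed, the 44 genes took 0.734% and 0.767% of the recovered reads in vehicle 1 and 2 and 0.633% and 0.660% in octanoate 1 and 2. In bulk RNA, fewer cells in G2 and mitosis and less of these transcripts per cell cannot be told apart.

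**Figure D2:**
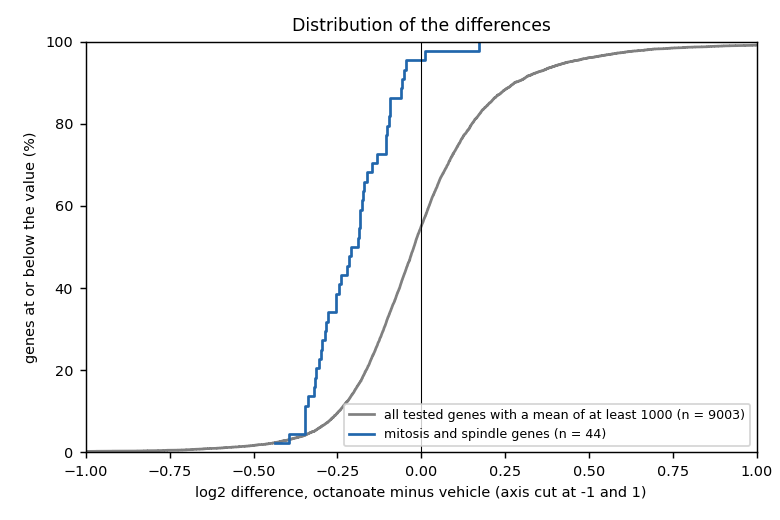
Cumulative share of genes (y axis, %) at or below a log2 difference between octanoate and vehicle (x axis, cut at -1 and 1), for the 44 genes and for the 9003 tested genes with means of 1000 or more, which include 43 of them. The curve of the 44 genes lies left of the other through most of its range, with medians of -0.20 and -0.02.

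The labelled cell type was checked on 12 melanocyte and melanoma markers, all with reads in every library. SOX10, a defining factor of the melanocyte lineage, stood between 34072 and 41363 normalised counts. In this list MITF (-0.48, adjusted p 2.33e-06), S100B (-1.12, adjusted p 9.15e-12) and PRAME (-0.18, adjusted p 0.0247) were called lower, MCAM (0.19, adjusted p 0.0184) and PMEL (0.55, adjusted p 0.0289) higher, and the pigment genes TYR, TYRP1, DCT, MLANA and PMEL had at most 98.2 in any library. The summed level of 13 markers of other cell types was 1741 and 1573 in vehicle and 834 and 803 in octanoate. KRT14, a keratin, held most of it in vehicle, at 1110 and 942 in vehicle and at 266 and 218 in octanoate. COL1A1, a collagen, stood at 394 and 393 in vehicle and at 228 and 259 in octanoate, while PECAM1, an endothelial marker, went the other way, from 121 and 122 to 249 and 221. These 3 were called (adjusted p 2.40e-13, 3.63e-05 and 1.05e-05), and PTPRC, CD3E and ALB had at most 10.8 in any library. All 13 had a read in every library except HBB, at 0 in octanoate 2. The part of these markers in the results on mitotic genes was not tested.

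Among the cyclins, CDK1 and the CDC25 phosphatases, 5 of 6 genes were called lower. CCNB1, which encodes cyclin B1, the main partner of CDK1 at mitotic entry, stood at 24321 and 23409 normalised counts in vehicle and at 19056 and 18495 in octanoate. Its log2 difference was -0.35 (SE 0.06, adjusted p 4.25e-05). CCNB2, which encodes cyclin B2, stood at 8140 and 7970 in vehicle and at 6313 and 6446 in octanoate, a log2 difference of -0.34 (SE 0.06, adjusted p 6.00e-05). For both cyclin B genes the octanoate libraries lay well apart from the vehicle libraries. CCNA2, which encodes the S and G2 cyclin A2, stood at 9211 and 9385 in vehicle and at 7571 and 7366 in octanoate and fell by 0.32 (SE 0.06, adjusted p 0.000119). Their kinase partner CDK1 stood at 10481 and 11240 in vehicle and at 10082 and 9154 in octanoate. The log2 difference of CDK1 was -0.18 (SE 0.06, adjusted p 0.0310), and its groups were separated by a narrow gap. Without vehicle 2 or octanoate 2 the call of CDK1 was lost, and its adjusted p over the alternatives reached 0.379. Of the phosphatases that activate CDK1, CDC25C stood at 1459 and 1474 in vehicle and at 1284 and 1252 in octanoate and fell by 0.21 (SE 0.07, adjusted p 0.0266). Leaving out any 1 of the 4 libraries lost the call of CDC25C. CDC25B stood at 15832 and 15133 in vehicle and at 15195 and 14830 in octanoate, a difference of -0.04 (SE 0.06, adjusted p 0.605) with overlapping groups.

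Of the mitotic kinases, 2 of 5 were called lower. AURKA, the kinase of centrosomes and spindle poles, stood at 13887 and 13539 normalised counts in vehicle and at 10536 and 10351 in octanoate. Its log2 difference of -0.39 (SE 0.06, adjusted p 6.43e-06) was second to that of KIF20A. Transcripts of AURKA share 1205 bases with those of AURKAP1, so its count is uncertain. PLK1, which acts in mitotic entry, spindle formation and cytokinesis, stood at 9311 and 8749 in vehicle and at 8107 and 7737 in octanoate, a log2 difference of -0.19 (SE 0.06, adjusted p 0.0158). The groups of PLK1 did not overlap, but its call was lost without vehicle 1 or octanoate 2. The other kinases were not called. AURKB, the kinase of the chromosomal passenger complex, stood at 5806 and 5321 in vehicle and at 5394 and 4982 in octanoate, a difference of -0.10 (SE 0.06, adjusted p 0.242). NEK2, which separates centrosomes, stood at 5525 and 5538 against 5159 and 5207, a difference of -0.09 (SE 0.06, adjusted p 0.233). PLK4, which starts centriole duplication, stood at 3619 and 3564 against 3639 and 3277, a difference of -0.06 (SE 0.06, adjusted p 0.553). The groups overlapped for AURKB and PLK4 and not for NEK2.

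Of the spindle checkpoint genes, 2 of 5 were called lower. The checkpoint kinase gene BUB1 stood at 7384 and 7295 normalised counts in vehicle and at 6090 and 6217 in octanoate, a log2 difference of -0.25 (SE 0.06, adjusted p 0.00126). TTK, which encodes the kinase MPS1 that starts checkpoint signalling, stood at 5054 and 5296 in vehicle and at 4816 and 4312 in octanoate. The difference of TTK was -0.18 (SE 0.06, adjusted p 0.0305), with octanoate 1 nearer to vehicle than to octanoate 2. Its call was lost without vehicle 1, vehicle 2 or octanoate 2. BUB1B, BUB3 and MAD2L1 encode the proteins that hold CDC20 in the inhibitory checkpoint complex, and none of them passed the test. BUB1B stood at 8909 and 8889 in vehicle and at 8215 and 8429 in octanoate, a difference of -0.10 (SE 0.06, adjusted p 0.205). BUB3 stood at 19002 and 18624 against 17514 and 17795, a difference of -0.09 (SE 0.06, adjusted p 0.229). MAD2L1 stood at 9971 and 10148 against 10342 and 9106, a difference of -0.05 (SE 0.06, adjusted p 0.578). The groups overlapped for MAD2L1, where octanoate 1 was the highest library.

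CDC20 and UBE2C act with the APC/C, and PTTG1 encodes securin, which it destroys. PTTG1 was the gene called higher: it stood at 9211 and 9123 normalised counts in vehicle and at 10484 and 10159 in octanoate. Its log2 difference was 0.17 (SE 0.06, adjusted p 0.0225), and both octanoate libraries were above both vehicle libraries. The call was lost when any 1 of the 4 libraries was left out, with the difference between 0.15 and 0.19 in every alternative. PTTG1 shares 244 bases with PTTG3P, so its count is uncertain. UBE2C, the ubiquitin-conjugating enzyme of the APC/C, stood at 10294 and 9828 in vehicle and at 9161 and 8727 in octanoate, a log2 difference of -0.17 (SE 0.06, adjusted p 0.0271). The call of UBE2C was lost without vehicle 1 or octanoate 2. CDC20 stood at 18449 and 17283 in vehicle and at 17210 and 16036 in octanoate, a difference of -0.10 (SE 0.06, adjusted p 0.195), and shares 1503 bases with CDC20P1.

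All 9 genes grouped as kinesins were lower in both octanoate libraries than in either vehicle library, beside 30.5% of all tested genes. CENPE, also a kinesin, was placed with the kinetochore genes, and its groups overlapped. Of the 9 genes, 7 were called lower. KIF20A, whose motor works at the central spindle and in cytokinesis, had the largest fall of the 44 genes. It stood at 13071 and 12648 normalised counts in vehicle and at 9272 and 9743 in octanoate, a log2 difference of -0.44 (SE 0.06, adjusted p 1.91e-06). KIFC1, a minus-end motor that focuses spindle poles, stood at 6088 and 5713 in vehicle and at 4732 and 4555 in octanoate, a log2 difference of -0.35 (SE 0.06, adjusted p 8.23e-05). For both motors the gap between the groups was wider than that between replicates. Exons of KIF20A overlap those of BRD8 and CDC23 on the other strand. KIF11, the motor that pushes spindle poles apart, stood at 20877 and 20605 in vehicle and at 16307 and 16905 in octanoate and fell by 0.32 (SE 0.06, adjusted p 9.54e-05). KIF23, a subunit of centralspindlin, stood at 12557 and 12522 against 10028 and 10152 and fell by 0.31 (SE 0.06, adjusted p 0.000110). These 4 motors kept their calls without any 1 library. KIF18A, which damps chromosome movements, stood at 2524 and 2768 in vehicle and at 2250 and 2112 in octanoate and fell by 0.28 (SE 0.07, adjusted p 0.00275), a call lost without vehicle 2. The microtubule depolymerase gene KIF2C stood at 9847 and 9393 against 8454 and 8107 and fell by 0.22 (SE 0.06, adjusted p 0.00550), a call lost without vehicle 1 or octanoate 2. KIF4A, a motor of chromosome arms and midzone, stood at 7845 and 7555 against 6747 and 6813 and fell by 0.18 (SE 0.06, adjusted p 0.0163). The call of KIF4A was lost without vehicle 1, octanoate 1 or octanoate 2, and the gene shares 4359 bases with KIF4B. KIF14 and KIF20B, motors of cytokinesis, were not called. KIF14 stood at 9478 and 10098 in vehicle and at 8475 and 9205 in octanoate, a difference of -0.15 (SE 0.06, adjusted p 0.0657), and KIF20B at 11521 and 12333 against 10830 and 11347, a difference of -0.10 (SE 0.06, adjusted p 0.183).

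Of the centromere and kinetochore genes, 4 of 5 were called lower. NDC80, which encodes a subunit that binds microtubules, stood at 3827 and 4062 normalised counts in vehicle and at 3233 and 3187 in octanoate, a log2 difference of -0.30 (SE 0.06, adjusted p 0.000592). Its partner NUF2 stood at 8455 and 8446 in vehicle and at 7876 and 7132 in octanoate, a difference of -0.17 (SE 0.06, adjusted p 0.0304). The call of NUF2 was lost without vehicle 1, vehicle 2 or octanoate 2. CENPF, which encodes a large protein of the outer kinetochore, stood at 44678 and 44685 in vehicle and at 33291 and 39592 in octanoate. The octanoate libraries of CENPF differed more from each other than the vehicle libraries did, and its log2 difference of -0.30 (SE 0.07, adjusted p 0.00158) was -0.17 without octanoate 1, with the call lost. CENPA, the histone variant that marks centromeres, stood at 2419 and 2355 against 2052 and 1873 and fell by 0.28 (SE 0.07, adjusted p 0.00224), a call lost without octanoate 2. CENPE, a kinesin of the kinetochore, stood at 8971 and 9864 in vehicle and at 8748 and 9295 in octanoate, a difference of -0.06 (SE 0.06, adjusted p 0.490) with overlapping groups.

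The subunits that anchor AURKB in the chromosomal passenger complex were all called lower, 3 of 3. CDCA8, which encodes borealin, stood at 5632 and 5316 normalised counts in vehicle and at 4453 and 4160 in octanoate, a log2 difference of -0.35 (SE 0.06, adjusted p 0.000103). BIRC5, which encodes survivin, stood at 8384 and 7870 in vehicle and at 6706 and 6440 in octanoate, a log2 difference of -0.31 (SE 0.06, adjusted p 0.000267). INCENP, the scaffold, stood at 10775 and 10875 in vehicle and at 9071 and 9190 in octanoate and fell by 0.25 (SE 0.06, adjusted p 0.00146). The groups of these 3 genes did not overlap, and the calls held without any 1 library.

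Among the spindle and midzone genes 3 of 5 were called lower. TPX2, which activates AURKA on the spindle, stood at 27643 and 26737 normalised counts in vehicle and at 22609 and 23443 in octanoate, a log2 difference of -0.24 (SE 0.06, adjusted p 0.00226). ASPM, a spindle pole protein, stood at 23665 and 25327 in vehicle and at 19352 and 21777 in octanoate, a log2 difference of -0.25 (SE 0.06, adjusted p 0.00318). Replicates of ASPM were further apart than those of TPX2, and its call was lost without vehicle 2 or octanoate 1. HMMR, which binds hyaluronan and spindle microtubules, stood at 6509 and 6675 against 5997 and 5600 and fell by 0.19 (SE 0.06, adjusted p 0.0185), a call lost without vehicle 1, vehicle 2 or octanoate 2. ECT2, which activates RhoA for cytokinesis, stood at 9589 and 9748 in vehicle and at 8827 and 8835 in octanoate, a difference of -0.13 (SE 0.06, adjusted p 0.0797). PRC1, which bundles microtubules of the midzone, was counted at only 104 and 96.9 in vehicle and 96.3 and 106 in octanoate, a difference of 0.010 (SE 0.17, adjusted p 0.974). PRC1 shares 1668 bases with AC068831.7, a gene on the same strand, so its count is uncertain; the part of this overlap in its low count was not tested.

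The 3 remaining genes were called lower. FOXM1, a transcription factor of G2 and M phase genes, stood at 8466 and 8218 normalised counts in vehicle and at 6968 and 6709 in octanoate, a log2 difference of -0.29 (SE 0.06, adjusted p 0.000410). MKI67, which encodes the proliferation marker Ki-67, stood at 40161 and 42939 in vehicle and at 33376 and 38044 in octanoate, a log2 difference of -0.22 (SE 0.07, adjusted p 0.0121). As with CENPF, the lower of the octanoate values of MKI67 was that of octanoate 1, and without it the difference was -0.13 and was not called; the call was also lost without vehicle 2. TOP2A, which untangles sister DNA, stood at 55569 and 55888 in vehicle and at 49094 and 50496 in octanoate, a difference of -0.16 (SE 0.06, adjusted p 0.0395), a call lost without any 1 library. On recovered reads, DESeq2 called TOP2A and FOXM1 but neither MKI67 nor CENPF. The authors' deposited table calls both, with an adjusted p of 0.00689 for MKI67 and 0.000377 for CENPF.

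**Figure D3:**
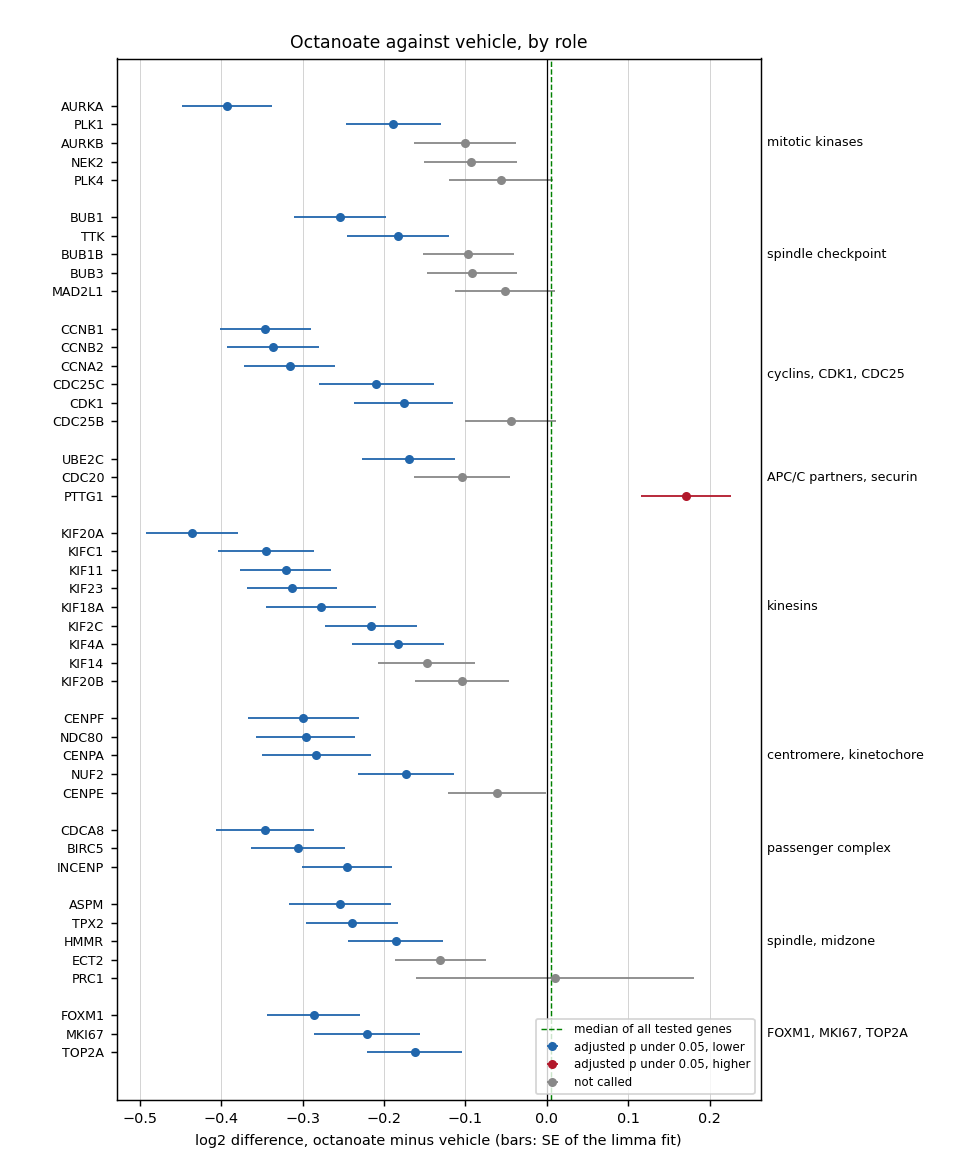
Log2 difference between octanoate and vehicle for each of the 44 genes (x axis), grouped by role, with bars of 1 SE from the limma fit over 2 libraries per group. Points called lower at an adjusted p under 0.05 are blue (30 genes), the 1 called higher is red, and the others are grey; the dashed line is the median of all tested genes.

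Some of the 44 genes resemble or overlap others. By GENCODE 29, transcripts of 22 of the 44 share at least 100 bases at 95% identity or more with another gene, exons of 14 overlap a gene on the opposite strand, and exons of 3 overlap one on the same strand. Whether counting used the strand is not given in the sources used here. Among those on the opposite strand are ITFG2 for FOXM1, EXOSC9 for CCNA2 and ERN2 for PLK1. Of the 20 genes with none of these, 14 were called lower and 0 higher, with a median log2 difference of -0.20. Of all tested genes 13.7% were lower and 16.2% higher. At an unadjusted p under 0.05 limma gave 15 of the 20 as lower and 0 as higher. The share of all tested genes at an unadjusted p was not counted.

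Grouped by promoter letters, 15 of the 19 genes with both CCAAT and CHR letters were called lower, with a median log2 difference of -0.21. Of the 18 other genes with a RefSeq window, 9 were called lower and 1 higher, with a median of -0.16. The ranges overlapped, from -0.35 to 0.01 in the former and from -0.44 to 0.17 in the latter. Of all tested genes, 13.7% were lower and 16.2% higher. The grouping depends on the window: in the whole window of 300 bases, 25 genes held both in place of 19.

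The wider mitotic machinery was read from lists of 125 other genes: APC/C, cohesin and condensin, kinetochore, spindle and cytokinesis, centrosome and mitotic entry. Of these, 42 were called lower (33.6%) and 7 higher, with a median log2 difference of -0.10. Of all tested genes 13.7% were lower and 16.2% higher. Of those with means of 1000 or more, a level that not all of the 125 reached, 20.0% were lower and 18.1% higher. With no filter, 12 of the 125 were lower and 1 higher, beside 2.30% of all tested genes lower. Without the expression trend in the variance prior limma called 0 of the 125, beside 2.62% of all tested genes lower and 5.41% higher. At an unadjusted p under 0.05 that fit gave 31 of the 125 as lower and 3 as higher. The share of all tested genes at an unadjusted p was not counted. Leaving out 1 library at a time, fewer of the 125 were called lower each time, and their median log2 difference stayed between -0.11 and -0.09. Calls in the spindle and cytokinesis, cohesin and condensin, and kinetochore lists fell each time. Those of the APC/C list fell in each fit but that without octanoate 1. The spindle and cytokinesis list had 16 of 33 genes lower and 1 higher, led by PSRC1 and GTSE1, both regulators of spindle microtubules. PSRC1 stood at 3109 and 2925 in vehicle and at 2295 and 2213 in octanoate, a difference of -0.42 (SE 0.06, adjusted p 1.76e-05), and GTSE1 at 4497 and 4430 against 3486 and 3433, a difference of -0.37 (SE 0.06, adjusted p 3.50e-05). Of cohesin and condensin genes 7 of 17 were lower, led by SGO2, a protector of centromeric cohesin, and the condensin gene NCAPH. SGO2 stood at 4419 and 4725 against 3588 and 3309, a difference of -0.41 (SE 0.06, adjusted p 2.15e-05), and NCAPH at 5026 and 4828 against 4060 and 4104, a difference of -0.27 (SE 0.06, adjusted p 0.000988). Of other kinetochore genes 10 of 33 were lower, led by ZWINT, a partner of KNL1, and CENPL, of the inner kinetochore. ZWINT stood at 7928 and 7727 against 6295 and 5971, a difference of -0.35 (SE 0.06, adjusted p 4.31e-05), and CENPL at 2027 and 2193 against 1722 and 1643, a difference of -0.33 (SE 0.07, adjusted p 0.000735). The APC/C list had 6 of 17 lower and 1 higher, led by its inhibitor FBXO5 and its subunit CDC27. FBXO5 stood at 3086 and 3035 against 2415 and 2472, a difference of -0.32 (SE 0.06, adjusted p 0.000271), and CDC27 at 12348 and 12690 against 10186 and 10464, a difference of -0.28 (SE 0.06, adjusted p 0.000464).

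Of 16 centrosome genes 2 were called lower (12.5%) and 4 higher, with a median log2 difference of 0.04. Of all tested genes 13.7% were lower and 16.2% higher. Of those with means of 1000 or more, a level that all 16 reached, 20.0% were lower and 18.1% higher. The 4 higher calls were lost with no filter, without the trend and without any 1 library, while edgeR called 5 of the 16 higher and DESeq2 3. PCNT, the pericentrin gene, stood at 6523 and 6350 in vehicle and at 5101 and 5369 in octanoate, a difference of -0.30 (SE 0.06, adjusted p 0.000339). STIL, a centriole assembly gene, stood at 4610 and 4774 against 3987 and 4168, a difference of -0.20 (SE 0.06, adjusted p 0.0115) that was not called without vehicle 2 or octanoate 1. The 4 called higher, named after their values were seen, were CEP63, TUBGCP3, TUBGCP4 and TUBGCP6. Of 9 genes of mitotic entry control 1 was lower (11.1%) and 1 higher, beside the same shares of all tested genes. BORA, a cofactor of AURKA, stood at 1197 and 1284 against 1082 and 1049, a difference of -0.22 (SE 0.07, adjusted p 0.0293), with the call lost without vehicle 2, octanoate 1 or octanoate 2. CKS1B, a small subunit of CDK complexes, stood at 9538 and 9337 in vehicle and at 11462 and 11390 in octanoate, a difference of 0.28 (SE 0.06, adjusted p 0.000475).

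**Figure D4:**
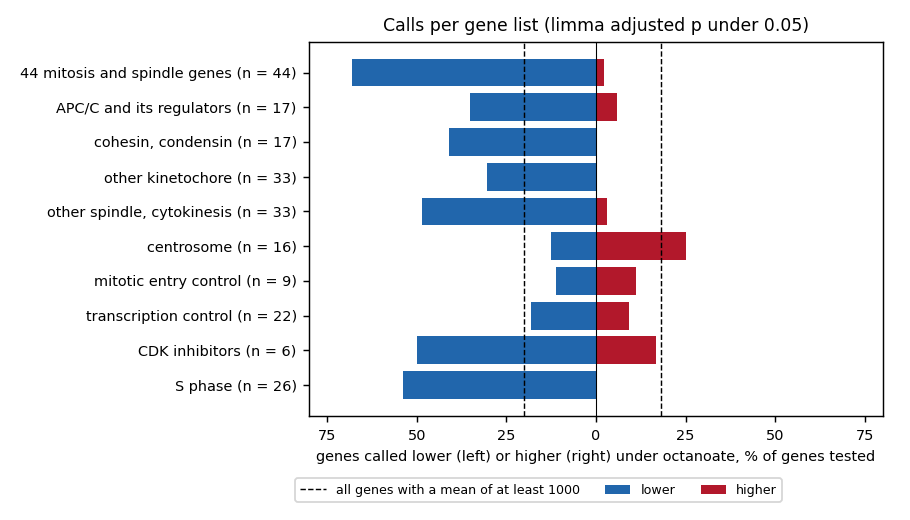
Share of tested genes called lower (left of 0) or higher (right of 0) under octanoate at an adjusted p under 0.05, for the 44 genes and 9 other lists; dashed lines mark the shares among all tested genes with means of 1000 or more (20.0% lower, 18.1% higher). The longest bar on the lower side is that of the 44 genes (68.2%), and the centrosome list has more genes on the higher side.

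Regulators of cell cycle transcription and of CDKs were read from 2 more lists. Of 22 genes of E2F, RB family, MuvB and NF-Y factors, 4 were lower (18.2%) and 2 higher. These counts stand beside 13.7% lower and 16.2% higher of all tested genes. Of those with means of 1000 or more, a level that not all of the 22 reached, 20.0% were lower and 18.1% higher. E2F1, an activator of S phase genes, stood at 4682 and 4060 normalised counts in vehicle and at 6246 and 5826 in octanoate, a log2 difference of 0.47 (SE 0.07, adjusted p 6.86e-06). RBBP4, a histone chaperone and MuvB subunit, stood at 15749 and 15250 against 12568 and 12227, a difference of -0.32 (SE 0.06, adjusted p 9.06e-05). Both octanoate libraries were thus above vehicle for E2F1 and below it for RBBP4. Without the trend in the variance prior neither gene was called, and 0 of the 22 were lower and 0 higher. That fit called 2.62% of all tested genes lower and 5.41% higher. With no filter 1 of the 22 was lower and 1 higher, beside 2.30% of all tested genes lower. Of 6 tested CDK inhibitor genes 3 were lower (50%) and 1 higher, beside the same 13.7% and 16.2% of all tested genes. CDKN2B did not pass the filter. CDKN2C, which encodes the CDK4 and CDK6 inhibitor p18, stood at 5256 and 4970 in vehicle and at 2822 and 2545 in octanoate, a log2 difference of -0.93 (SE 0.06, adjusted p 5.67e-11). CDKN1C, which encodes the inhibitor p57, stood at 1442 and 1325 in vehicle and at 741 and 656 in octanoate, a log2 difference of -0.99 (SE 0.08, adjusted p 1.52e-09). CDKN1A, which encodes the inhibitor p21 and was named after its values were seen, was the 1 called higher, at 0.52 (SE 0.06, adjusted p 2.34e-07). The calls of CDKN2C and CDKN1C held in all 16 alternatives run.

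Of all tested genes 13.7% were lower, and of those with means of 1000 or more 20.0%. The 26 genes of S phase all reached that level, and 14 of them were called lower (53.8%), with a median log2 difference of -0.17. The count was 6 with no filter, beside 2.30% of all tested genes lower in that fit. It was 1 without the trend, beside 2.62%. The count also fell when vehicle 1, octanoate 1 or octanoate 2 was left out, in fits with 1 library in a group. CCNE2, which encodes cyclin E2, stood at 1261 and 1358 in vehicle and at 933 and 866 in octanoate, a difference of -0.54 (SE 0.08, adjusted p 7.21e-06). TYMS, the thymidylate synthase gene, stood at 5569 and 5098 against 4276 and 4082, a difference of -0.35 (SE 0.06, adjusted p 0.000104), and was not called without the trend.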

How the data were processed

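RNA was sequenced from A375 cells, 2 libraries with isopropanol and 2 with octanoate. The submitters' processing notes name bcl2fastq 2.17, Trim Galore, STAR 2.4, Picard, HTSeq 0.9.1, DESeq2 and hg38; the annotation and the use of strand are not given in the sources used here. The main deposited table holds a normalised signal per gene, a read count divided by 1 size factor per library per the file headers and name. All values were whole multiples of their library's smallest positive value (100% within 0.01), which gave whole reads. The authors' deposited table of the comparison gives a log2 fold change with its SE, a mean signal, a test score, and p-values.

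The comparison was fitted with limma 3.58.1 (R 4.3.3) on log2(normalised count + 1), a scale that understates changes of low genes, with a variance prior that follows mean intensity, over 20250 genes with means of 10 or more. The two-sided p-values were adjusted by Benjamini-Hochberg over all genes tested, and calls were made under 0.05. An SE comes from this fit. The members and lists were chosen with earlier results of these data known, so lists are given as counts and medians without a test. The naming rule took the 2 genes with the smallest p in each role or list, any member called higher, and FOXM1, MKI67 and CDK1; the values of the other members are given too. Lists matched by symbol; KNL1 was found under its older name CASC5. Other settings tried were no filter, a mean of at least 50, pseudocounts of 0.5 and 5, TMM rescaling, equal totals, no trend, a replicate block, each library left out, edgeR 4.0.16 (quasi-likelihood) and DESeq2 1.42.0 on recovered reads, and correction for GC content and length. Chosen after the data were seen were GENCODE 29 genes only, members without shared sequence, and the whole promoter window. Shared sequence was searched with blastn 2.17.0. The limma, edgeR and DESeq2 fits were tested on simulated data. That check bore on the estimated size of changes by a factor of 2 or more, which no member reached. It set no limit on false calls.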

Additional observations from a re-analysis of the deposited data

How the results depend on the processing

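All 16 alternatives run left the median log2 difference of the 44 genes negative, and it stayed between -0.23 and -0.19 when 1 library was left out. Counts of calls moved more. With no filter, 15 of the 44 were lower and 0 higher, beside 2.30% of all tested genes lower. In all, 2595 genes were called with no filter, against 6048 under the main settings. With a variance prior without a trend, 0 were lower, 0 were higher and 1625 genes were called. The prior degrees of freedom were 1.57 there and 3.46 with no filter, against 21.2. They were 64.6 with the replicate block and infinite without octanoate 1 or octanoate 2, where a gene's own spread did not enter. Each fit without 1 library left 1 library in a group, so the replicate spread came from the other group alone. Leaving out 1 library at a time gave between 20 and 24 of the 44 lower (20 without octanoate 2, 21 without vehicle 1 or vehicle 2, 24 without octanoate 1), 0 higher each time (PTTG1 passed an unadjusted p of 0.05 in 3 of the 4), and between 4295 and 4757 genes called in all. Of the 30 genes called lower, 15 lost the call under no alternative other than the prior without a trend. Genes that changed sign were not called in any such setting: leaving out 1 library at a time, PLK4 ranged from -0.13 to 0.019, MAD2L1 from -0.14 to 0.040, CENPE from -0.13 to 0.0074 and PRC1 from -0.060 to 0.080. Over the 20 genes without shared sequence or overlap, 14 were lower and 0 higher, because fewer genes were counted. In the whole promoter window of 300 bases, 29 in place of 20 genes held CHR letters. With the replicate number as a block, 36 of the 44 were lower, 1 was higher and 8376 genes were called. That fit called 20.1% of all tested genes lower, against 13.7% under the main settings. The 2 libraries numbered 1 deviated together with a correlation of 0.126 over 20250 genes, and with only 2 pairs the numbers were not taken as pairing. After correction for GC content and length, 38 of the 44 were lower and 1 higher, beside 23.9% of the genes tested in that fit lower. GENCODE 29 names 75.0% of the tested genes and all 44 members. Under the settings of the report the SE was 0.06 to 0.07 for 43 of the 44 genes, and none with a difference of 0.15 or less was called; other settings called some smaller ones, such as ECT2 with TMM rescaling.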
